A study of Homo sapiens with 36 samples.

Results

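The genes described here are the EGF receptor ligands HBEGF, AREG, EREG and TGFA, the receptor EGFR, and ERRFI1, which encodes an inhibitor that binds the kinase domain of the receptor. They were taken by gene symbol from the annotation of the arrays, over both cell lines and all times. Of these 6 genes, 5 had a named probe, with 9 probes in all, among the 14678 genes tested in the series. AREG, the gene of amphiregulin, had no probe under its symbol or Entrez identifier in the annotation used and was not analysed here.

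RNA was measured on 36 Illumina bead arrays, 18 from each of 2 human cell lines. HCT116 is a colorectal carcinoma line, and BEAS-2B is a bronchial epithelial line that was immortalized with viral genes. Copper sulphate in DMEM was given to HCT116 at 1400 µM and to BEAS-2B at 800 µM. Each line had 10 copper arrays, 2 for every time of 2, 4, 6, 12 and 18 h, and 8 arrays of untreated cells, of which 0 and 6 h had 2 apiece and 2, 4, 12 and 18 h had 1. The dose went with the line, so an effect of the line and an effect of the dose cannot be told apart. The labels do not tie replicate arrays to independent cultures, and p-values here measure only how far these arrays spread, which may be technical. A level is a normalized log2 signal of a whole culture, in which fewer cells of a kind and less RNA per cell cannot be told apart. An effect is the mean level of the copper arrays minus that of untreated arrays of the same line and time, given with its standard error (SE). It is called where the adjusted p of limma, corrected over all genes tested by the Benjamini-Hochberg method, is under 0.05.

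The share of probes detected was lower late in copper. It was 36.86 to 40.89% on HCT116 arrays at 2 to 6 h of copper, 32.21 to 35.65% at 12 and 18 h of copper, and 39.64 to 42.4% on untreated HCT116 arrays. In BEAS-2B it was 40.48 to 42.76% at 2 to 6 h of copper, 36.16 to 37.89% at 12 and 18 h, and 41.35 to 43.23% on untreated arrays. Its part in the results was not tested. HCT116 carried epithelial markers, with CDH1 and KRT19 detected on 8 of 8 untreated arrays, and the colon factor CDX2 on 8 of 8, but VIL1 and CDX1 on 0 of 8. On untreated BEAS-2B arrays the epithelial genes CDH1 and KRT19 and the basal airway genes KRT5, KRT14 and NGFR were detected on 0 of 8. KRT8 averaged 10.9 there, and the bronchial epithelial label rests here on KRT8, KRT18 and a low EPCAM signal. On the same arrays the mesenchymal genes VIM, CDH2, COL1A1 and FN1 averaged 13.8, 12.8, 12.6 and 6.96, and COL3A1 was detected on 0 of 8. Over 4 of 5 leukocyte markers with a probe, the summed linear signal was 115.2 to 387.8 on copper arrays and 92.74 to 129.7 on untreated arrays of HCT116, and 228.2 to 402.4 on copper arrays and 175.2 to 221.5 on untreated arrays of BEAS-2B. CD14 averaged 6.75 with copper and 4.80 without in HCT116, and 7.77 and 7.00 in BEAS-2B, and CD3E was detected on 0 of 8 untreated arrays of either line. The summed linear signal of the colon markers was 121.3 to 282.4 on copper arrays and 290.7 to 337.1 on untreated arrays of HCT116. The part of these markers in the results was not tested.

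EGF receptor ligands are made as membrane-anchored precursors and are released by proteases such as ADAM17, after which they bind the receptor on the same or a neighbouring cell. The receptor pairs with itself or with its relatives ERBB2 and ERBB3, phosphorylates its own tail and switches on the RAS, RAF, MEK and ERK kinases. ERK in turn raises transcription of HBEGF and of inhibitors such as ERRFI1, the sprouty proteins and the dual-specificity phosphatases, so ligands and brakes are both known as early response genes. In epithelia the pathway is known for its roles in growth, migration and wound closure.

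The promoters of the genes that moved most, HBEGF and ERRFI1, are shown with those of EREG and EGFR, because for these 4 genes all 10 copper arrays of BEAS-2B lay above all untreated ones. The same was so for 4.42% of all genes tested. Each window is the 250 bases before a RefSeq gene start in GRCh38.p14, written 5′ to 3′ on the strand of the gene, and EGFR has 2 starts. Capitals mark matches, on either strand, to 8 motifs chosen after results of these data were known.
HBEGF, chr5:140346604-140346853, minus strand: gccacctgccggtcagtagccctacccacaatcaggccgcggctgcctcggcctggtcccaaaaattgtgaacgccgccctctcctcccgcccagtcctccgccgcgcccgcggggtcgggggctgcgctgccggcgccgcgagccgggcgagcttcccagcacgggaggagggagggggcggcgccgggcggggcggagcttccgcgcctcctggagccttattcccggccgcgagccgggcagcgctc
ERRFI1, chr1:8026310-8026559, minus strand: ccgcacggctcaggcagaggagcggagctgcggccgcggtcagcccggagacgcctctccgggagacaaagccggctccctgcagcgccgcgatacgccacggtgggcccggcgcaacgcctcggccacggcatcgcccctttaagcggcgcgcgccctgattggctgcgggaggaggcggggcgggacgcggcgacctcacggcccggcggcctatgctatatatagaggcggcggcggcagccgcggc
EREG, chr4:74364895-74365144, plus strand: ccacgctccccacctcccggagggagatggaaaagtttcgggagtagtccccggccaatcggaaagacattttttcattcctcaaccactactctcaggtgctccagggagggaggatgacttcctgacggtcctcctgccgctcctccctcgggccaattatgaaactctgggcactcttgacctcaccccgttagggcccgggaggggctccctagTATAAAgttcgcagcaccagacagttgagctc
EGFR upstream start, chr7:55018767-55019016, plus strand: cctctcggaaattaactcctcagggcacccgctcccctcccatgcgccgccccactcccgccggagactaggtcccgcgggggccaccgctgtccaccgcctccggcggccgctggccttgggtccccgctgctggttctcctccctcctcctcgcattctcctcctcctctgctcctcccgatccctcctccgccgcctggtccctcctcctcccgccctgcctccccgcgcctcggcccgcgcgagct
EGFR downstream start, chr7:55109589-55109838, plus strand: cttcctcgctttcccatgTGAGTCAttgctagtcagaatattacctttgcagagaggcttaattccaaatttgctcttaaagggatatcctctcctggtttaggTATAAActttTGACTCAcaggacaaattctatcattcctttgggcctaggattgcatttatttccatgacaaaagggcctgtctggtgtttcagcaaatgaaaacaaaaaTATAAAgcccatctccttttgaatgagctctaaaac

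None of the 8 motifs matched in the HBEGF, ERRFI1 and upstream EGFR windows. The EREG window held a TATA box, TATAAA, starting 32 bases before the gene start (position -32), and the downstream EGFR window held 2 AP-1 motifs, TGANTCA, at -232 and -136, and TATAAA at -146 and -36. Among 35116 promoter windows of the same length, 6.57% held TGANTCA and 10.7% TATAAA. The other motifs were the cyclic AMP response element TGACGTCA (1.65% of windows), the heat shock element (HSE, 0.441%), the metal response element TGCNCNC (49.1%), the antioxidant response element TGACNNNGC (10.9%), the CArG box (1.16%) and the ETS motif CCGGAAGT (3.42%). TGACNNNGC can overlap TGANTCA, and a match is a description of the letters only.

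**Figure D1:**
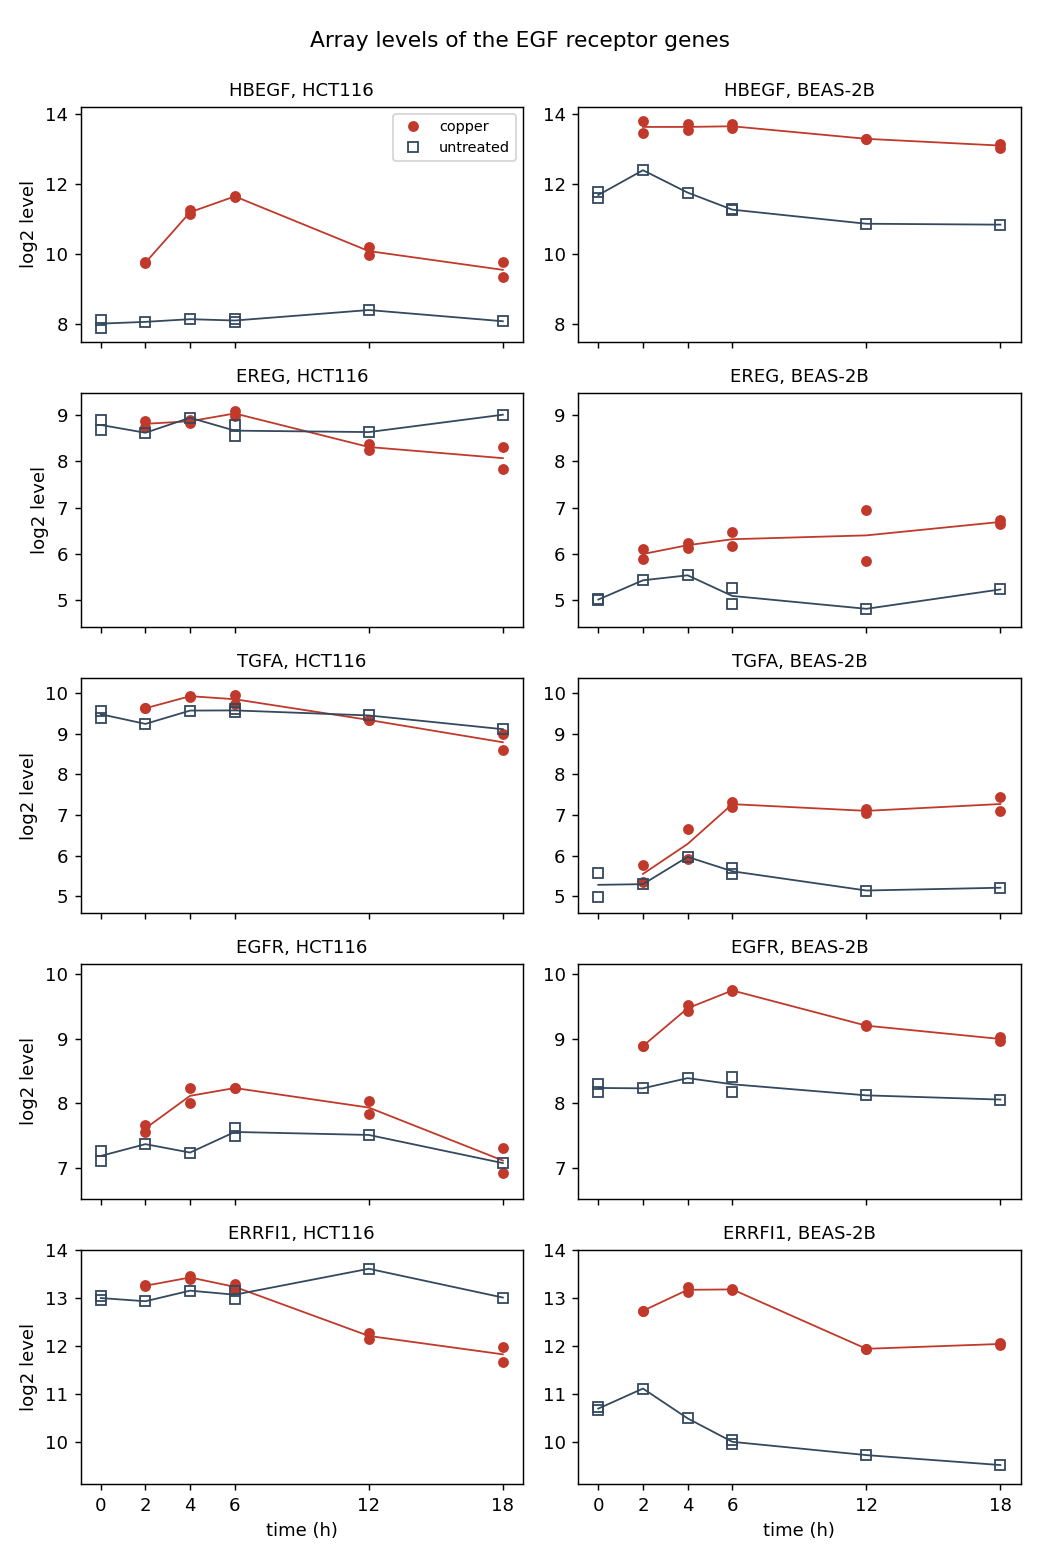
Normalized log2 level (vertical axis) of each gene on each array against time in hours (horizontal axis), with HCT116 on the left, BEAS-2B on the right, copper arrays as filled circles, untreated arrays as open squares, and lines through the group means. HBEGF on copper arrays lay above untreated arrays in both lines, whereas ERRFI1 on copper arrays lay below untreated arrays from 12 h in HCT116 and above them in BEAS-2B.

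HBEGF, the gene of heparin-binding EGF-like growth factor, was higher with copper in both lines at every time. In HCT116 it rose 4.88-fold on average over the 5 times, and in BEAS-2B 4.09-fold. The effect was largest at 6 h in HCT116, and in BEAS-2B it stayed between 2.26 and 2.42 from 6 h on.

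In HCT116 the 2 copper arrays read 9.75 and 9.78 at 2 h, 11.25 and 11.15 at 4 h, 11.68 and 11.63 at 6 h, 9.98 and 10.21 at 12 h, and 9.77 and 9.34 at 18 h. The 8 untreated HCT116 arrays read 7.91 to 8.41, with a median of 8.12. All 10 copper arrays of HBEGF thus lay above all 8 untreated arrays, as did those of 2.16% of genes tested in HCT116. The effect was 1.69 ± 0.18 at 2 h, 3.05 ± 0.18 at 4 h, 3.54 ± 0.14 at 6 h, 1.68 ± 0.18 at 12 h and 1.47 ± 0.18 at 18 h, on the log2 scale. Each was called, and the average effect of 2.29 ± 0.08 had an adjusted p of 4.93e-14. In HCT116, 46.5% of genes tested were called in the average effect, 17.3% higher and 29.1% lower. Between successive copper times HBEGF gained 1.44 ± 0.14 at 4 h over 2 h (adjusted p = 2.7e-06; 9.31% of genes were called), and fell by 1.56 from 6 h to 12 h (SE 0.14, adjusted p = 5.88e-07; 24.6% of genes were called). The mean effect of 12 and 18 h minus that of 2 and 4 h was -0.80 ± 0.18 (adjusted p = 0.00178; 33% of genes were called). This call rested on the 4 h effect, which cannot be formed without the lone untreated array of 4 h. With that time dropped the difference was -0.12, with an adjusted p of 0.764, and with 2 h dropped in the same way it was -1.48.

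In BEAS-2B the copper arrays read 13.47 and 13.80 at 2 h, 13.54 and 13.73 at 4 h, 13.60 and 13.71 at 6 h, 13.29 and 13.30 at 12 h, and 13.16 and 13.05 at 18 h. The untreated BEAS-2B arrays read 11.78 and 11.61 at 0 h, 12.40 at 2 h, 11.76 at 4 h, 11.28 and 11.27 at 6 h, 10.87 at 12 h and 10.85 at 18 h. Copper arrays thus changed little with time, with 0 of 4 steps between successive copper times called (6.08, 0.94, 23.9 and 6.61% of genes were called in these steps), whereas untreated arrays were lower late than early. All 10 copper arrays again lay above all 8 untreated arrays, as for 4.42% of genes in BEAS-2B, and the copper arrays stood at the 99.14 to 99.69th percentile of their array's probes. The effect was 1.23 ± 0.18 at 2 h, 1.87 ± 0.18 at 4 h, 2.38 ± 0.14 at 6 h, 2.42 ± 0.18 at 12 h and 2.26 ± 0.18 at 18 h, and averaged 2.03 ± 0.08 (adjusted p = 1.73e-13). Against all untreated arrays of the line, in place of the 1 of that time, the 2 h effect was 2.16. In this line 48.8% of genes were called in the average effect, 18.5% higher and 30.3% lower. Untreated BEAS-2B arrays of 12 and 18 h were lower than those of 0 to 6 h, with a difference of -0.92 ± 0.12 (adjusted p = 1.45e-04; 3.37% of genes were called). The late effect minus the early effect was 0.79 ± 0.18 (adjusted p = 0.00193; 33.4% of genes were called). Without the lone 2 h untreated array, which drops the whole 2 h effect, it was 0.47, with an adjusted p of 0.143.

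EREG, the gene of epiregulin, a ligand of EGFR and ERBB4, was not called on average in HCT116 and was higher with copper in BEAS-2B. In HCT116 EREG read 8.88 and 8.74 at 2 h of copper, 8.90 and 8.83 at 4 h, 9.08 and 8.99 at 6 h, 8.25 and 8.37 at 12 h, and 8.30 and 7.84 at 18 h, against 8.55 to 9.01 on untreated arrays with a median of 8.73. Only the 4 copper arrays of 12 and 18 h lay below all untreated arrays, and 1 of 6 h lay above them. The average effect of -0.15 ± 0.13 was not called (adjusted p = 0.365). The effect at 18 h was -0.94 ± 0.30 (adjusted p = 0.0158), and without the second copper array of 18 h, on which 32.21% of probes were detected, it was -0.71 with an adjusted p of 0.105. Among copper arrays EREG fell by 0.72 from 6 h to 12 h (SE 0.24, adjusted p = 0.0362), a call that was lost without any 1 of the 4 copper arrays of those times.

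In BEAS-2B, where the EREG signal was near background without copper, it rose 2.14-fold on average. The BEAS-2B copper arrays read 6.11 and 5.89 at 2 h, 6.14 and 6.25 at 4 h, 6.17 and 6.47 at 6 h, 6.95 and 5.86 at 12 h, and 6.73 and 6.66 at 18 h. The 8 untreated BEAS-2B arrays read 4.82 to 5.54, with a median of 5.13, and the probe was detected on 6 of 8. All copper arrays were above all untreated arrays, and the 2 copper arrays of 12 h lay farther apart than those of any other time. The effect was 0.57 ± 0.30 at 2 h and 0.65 ± 0.30 at 4 h, neither called, then 1.22 ± 0.24 at 6 h, 1.58 ± 0.30 at 12 h and 1.46 ± 0.30 at 18 h, all called. Against all untreated arrays of the line the 2 h and 4 h effects of EREG were 0.84 and 1.03, both called (adjusted p = 0.00552 and 3.78e-04). At 12 h the untreated array did not detect EREG, and it was at least 3-fold higher with copper, which takes as the floor that array's own EREG signal, since it exceeded the lowest detected signal of the array; without the first copper array of 12 h the effect was 1.04. The average effect was 1.10 ± 0.13 (adjusted p = 8.06e-07), but 0.47 on the authors' quantile-normalized values, which keep the background in the signal (adjusted p = 1.3e-06).

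TGFA, the gene of transforming growth factor alpha, was not called at any time in HCT116 against untreated arrays of the same time, and in BEAS-2B it was called higher with copper at 6, 12 and 18 h. In HCT116 TGFA read 9.63 and 9.63 at 2 h of copper, 9.94 and 9.91 at 4 h, 9.74 and 9.97 at 6 h, 9.35 and 9.34 at 12 h, and 8.99 and 8.60 at 18 h, against 9.11 to 9.62 on untreated arrays with a median of 9.49. The 6 copper arrays of 2 to 6 h lay above all untreated arrays and the 2 of 18 h below them. The average effect was 0.12 ± 0.12 (adjusted p = 0.463), and the late minus early effect of -0.59 ± 0.27 was not called (adjusted p = 0.113), though it was on the authors' quantile-normalized values (-0.52, adjusted p = 0.00724), with an offset of 50 (adjusted p = 0.025) and on the deposited signals (adjusted p = 0.00294). Against all untreated arrays of the line the 18 h effect of TGFA was -0.65 and called (adjusted p = 0.00424), in place of -0.32 against the 18 h array (adjusted p = 0.391).

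In BEAS-2B the copper arrays read TGFA at 5.34 and 5.76 at 2 h, 6.66 and 5.91 at 4 h, 7.21 and 7.33 at 6 h, 7.05 and 7.15 at 12 h, and 7.10 and 7.44 at 18 h. The untreated BEAS-2B arrays read 4.98 to 5.97, with a median of 5.42. The 7 copper arrays above all untreated arrays were the 6 of 6 h and later and 1 of 4 h, and both copper arrays of 2 h lay within the untreated range. The effect was 0.25 ± 0.27 at 2 h and 0.32 ± 0.27 at 4 h, then 1.65 ± 0.22 at 6 h, 1.96 ± 0.27 at 12 h and 2.06 ± 0.27 at 18 h, with an average of 1.25 ± 0.12 (adjusted p = 4.9e-08). The untreated array of 4 h, at 5.97, was the highest of the 8, and against all untreated arrays of the line the 4 h effect of TGFA was 0.86 and called (adjusted p = 8.71e-04). The late effect exceeded the early effect by 1.73 ± 0.27 (adjusted p = 7.23e-05). The second TGFA probe gave an average of 0.82 ± 0.12 (adjusted p = 8.87e-06), and the authors' quantile-normalized values 0.62 for the first probe.

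EGFR, the gene of the receptor, was higher with copper in both lines on average. By its brightest probe it rose 1.37-fold in HCT116 and 2.06-fold in BEAS-2B. By that probe the copper arrays of both lines were highest on average at 4 and 6 h. In HCT116 the copper arrays read 7.66 and 7.55 at 2 h, 8.23 and 7.99 at 4 h, 8.23 and 8.24 at 6 h, 7.84 and 8.03 at 12 h, and 7.30 and 6.92 at 18 h, against 7.07 to 7.61 on untreated arrays with a median of 7.31. The 6 copper arrays of 4 to 12 h and 1 of 2 h lay above all untreated arrays, and 1 of 18 h lay below them. The effect was 0.24 ± 0.16 at 2 h, 0.88 ± 0.16 at 4 h, 0.68 ± 0.13 at 6 h, 0.43 ± 0.16 at 12 h and 0.04 ± 0.16 at 18 h. Those of 4, 6 and 12 h were called, the last at an adjusted p of 0.0455, and the 12 h call was lost in 23 of 45 alternatives. On the mean of the EGFR probes the 4 h effect was 0.62 (adjusted p = 0.0646). The average effect was 0.45 ± 0.07 (adjusted p = 1.92e-05), and 0.27 on the deposited signals without further normalization (adjusted p = 8.9e-05). Between 12 h and 18 h of copper EGFR fell by 0.82 (SE 0.13, adjusted p = 5.73e-04; 11.1% of genes were called), and the difference on the mean of its probes was -0.46 (adjusted p = 0.0889).

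In BEAS-2B EGFR read 8.89 and 8.88 at 2 h of copper, 9.52 and 9.42 at 4 h, 9.74 and 9.76 at 6 h, 9.20 and 9.21 at 12 h, and 9.02 and 8.97 at 18 h, against 8.06 to 8.41 on untreated arrays with a median of 8.20. All 10 copper arrays lay above all untreated arrays. The effect was 0.66 ± 0.16 at 2 h, 1.08 ± 0.16 at 4 h, 1.46 ± 0.13 at 6 h, 1.08 ± 0.16 at 12 h and 0.94 ± 0.16 at 18 h, each called, with an average of 1.04 ± 0.07 (adjusted p = 4.14e-10). The 2 h call, at an adjusted p of 0.031, was lost without either copper array of 2 h (adjusted p = 0.118 and 0.122) and on the mean of the probes (0.37, adjusted p = 0.481). From 6 h to 12 h of copper EGFR fell by 0.55 (SE 0.13, adjusted p = 0.00465), and the difference on the mean of its probes was -0.10 (adjusted p = 0.741). A second EGFR probe, detected on 35 of 36 arrays, gave average effects of 0.45 ± 0.18 in HCT116 (adjusted p = 0.0482) and 0.56 ± 0.18 in BEAS-2B (adjusted p = 0.0144). At 6, 12 and 18 h this probe gave 0.66, 0.73 and 0.63 in HCT116, and 0.47, 0.76 and 0.82 in BEAS-2B, none called. Its step from 12 h to 18 h of copper in HCT116 was -0.10 ± 0.34. That from 6 h to 12 h in BEAS-2B was 0.34 ± 0.34, and neither was called. The later fall of EGFR was thus seen with the first probe only. The other 2 EGFR probes were detected on 0 of 36 arrays.

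ERRFI1, also called MIG6, had the largest difference in average effect between the lines among the 5 genes. In HCT116 it was not called at 2 to 6 h and was lower with copper at 12 and 18 h. In BEAS-2B copper raised it 5.44-fold on average.

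In HCT116 ERRFI1 read 13.26 and 13.27 at 2 h of copper, 13.47 and 13.40 at 4 h, 13.19 and 13.30 at 6 h, 12.28 and 12.16 at 12 h, and 11.99 and 11.68 at 18 h. The untreated HCT116 arrays read 12.94 to 13.62 with a median of 13.04, at the 99.06 to 99.55th percentile of their array's probes. Only the 4 copper arrays of 12 and 18 h fell outside the untreated range, all below it. The effect was 0.32 ± 0.13 at 2 h (adjusted p = 0.447), 0.27 ± 0.13 at 4 h (adjusted p = 0.24) and 0.16 ± 0.11 at 6 h (adjusted p = 0.299). At 12 h it was -1.40 ± 0.13 (adjusted p = 1.98e-07) and at 18 h -1.18 ± 0.13 (adjusted p = 9.16e-07). The late effect minus the early effect was -1.59 ± 0.13 (adjusted p = 6.64e-08). The average effect of -0.36 ± 0.06 (adjusted p = 3.13e-05) is a mean over these times, and without the 12 h arrays it was -0.10, with an adjusted p of 0.214, and without the 18 h arrays -0.16, with an adjusted p of 0.0573. The untreated array of 12 h, at 13.62, was the highest of the 8, and against all untreated HCT116 arrays the 12 h effect was -0.90. Untreated HCT116 arrays of 12 and 18 h exceeded those of 0 to 6 h by 0.27 ± 0.09 (adjusted p = 0.0497; 15.2% of genes were called), and without the 12 h array the sign turned. The call was lost in 28 other alternatives of 45.

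In BEAS-2B the copper arrays read ERRFI1 at 12.74 and 12.75 at 2 h, 13.24 and 13.13 at 4 h, 13.20 and 13.18 at 6 h, 11.96 and 11.95 at 12 h, and 12.08 and 12.02 at 18 h. The untreated BEAS-2B arrays read 10.68 and 10.73 at 0 h, 11.12 at 2 h, 10.50 at 4 h, 10.06 and 9.97 at 6 h, 9.74 at 12 h and 9.53 at 18 h. Both series were lower late than early, and the copper arrays stayed above all untreated arrays. The effect was 1.62 ± 0.13 at 2 h, 2.68 ± 0.13 at 4 h, 3.18 ± 0.11 at 6 h, 2.21 ± 0.13 at 12 h and 2.52 ± 0.13 at 18 h, and averaged 2.44 ± 0.06 (adjusted p = 1.95e-16). Against all untreated arrays of the line the 2 h effect was 2.45. Among copper arrays ERRFI1 gained 0.44 ± 0.11 at 4 h over 2 h (adjusted p = 0.0203, lost without any 1 of these 4 arrays) and fell by 1.24 from 6 h to 12 h (SE 0.11, adjusted p = 2.74e-07). Untreated arrays of 12 and 18 h were lower than those of 0 to 6 h, with a difference of -0.95 ± 0.09 (adjusted p = 4.52e-06).

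**Figure D2:**
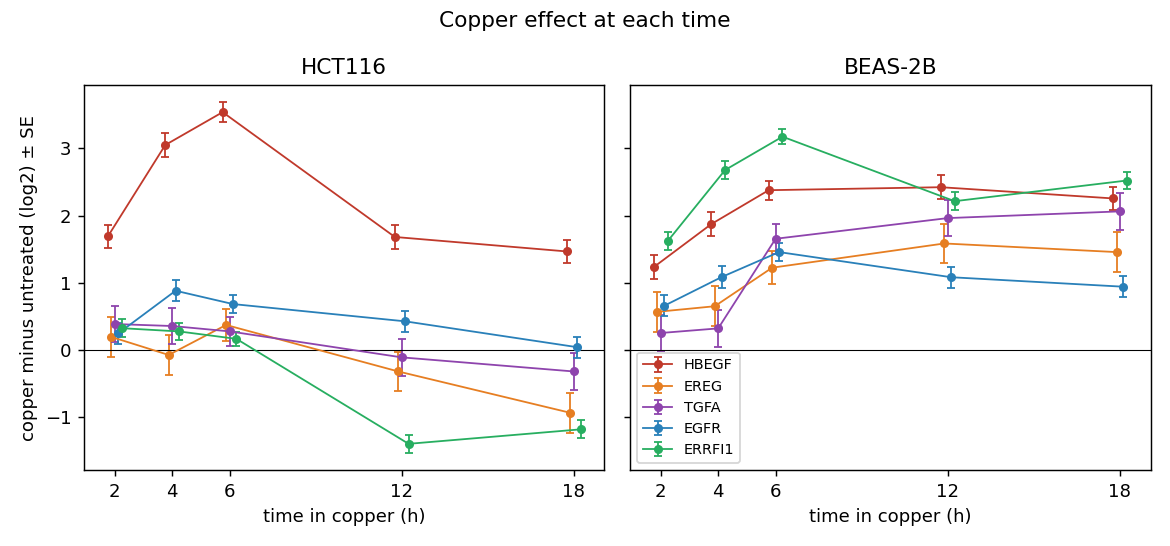
Copper minus untreated of the same time, on the log2 scale (vertical axis, mean ± SE from the limma model), against hours in copper (horizontal axis), for the 5 genes with a probe; HCT116 is on the left and BEAS-2B on the right, and points are shifted sideways for clarity. In HCT116 HBEGF peaked at 3.54 at 6 h and ERRFI1 reached -1.40 at 12 h, whereas in BEAS-2B all 5 genes were above 0 at every time.

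Over the single times, 11 of 25 gene and time pairs were called in HCT116, and 21 of 25 in BEAS-2B. The share of all genes called was 0.92, 10.1, 30.8, 34.9 and 42% at 2, 4, 6, 12 and 18 h in HCT116, and 2.67, 14.9, 31.1, 36.8 and 43.2% in BEAS-2B. HBEGF, at 2 h in HCT116, and HBEGF, EGFR and ERRFI1, at 2 h in BEAS-2B, were thus called when few genes were. All copper arrays lay above all untreated arrays for 1 of the 5 genes in HCT116 (HBEGF) and for 4 in BEAS-2B (HBEGF, EREG, EGFR and ERRFI1), beside 2.16% of all genes in HCT116 and 4.42% in BEAS-2B. They lay below all untreated arrays for 0 of the 5 in either line, beside 2.08% of all genes in HCT116 and 6.98% in BEAS-2B. On average over the times, 2 genes of the 5 rose (HBEGF and EGFR), 1 fell (ERRFI1) and 2 were not called in HCT116, and 5 of 5 rose in BEAS-2B. Over all genes, 17.3% were higher and 29.1% lower in HCT116, and 18.5% and 30.3% in BEAS-2B. The median effect of the 5 genes was 0.12 in HCT116 and 1.25 in BEAS-2B, beside medians over all genes of -0.04 in each line.

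The difference between the lines was tested as the effect in HCT116 minus that in BEAS-2B. Averaged over the times it was -2.81 ± 0.08 for ERRFI1 (adjusted p = 9.03e-14), -1.25 ± 0.18 for EREG (adjusted p = 4.23e-05), -1.13 ± 0.17 for TGFA (adjusted p = 4.74e-05) and -0.59 ± 0.10 for EGFR (adjusted p = 1.6e-04), so these 4 responded less in HCT116, or in the other direction. In this comparison 26.4% of genes were called, 12.8% higher and 13.6% lower. For HBEGF the averaged difference of 0.25 ± 0.11 was not called (adjusted p = 0.0972), which does not show that the lines responded alike, and it was called in 9 of 51 alternatives. HBEGF differed in opposite directions by stage: at 2 and 4 h the effect was 0.82 ± 0.18 larger in HCT116 (adjusted p = 0.0166; 2.15% of genes were called), and at 12 and 18 h the difference was -0.77 ± 0.18 (adjusted p = 0.0029; 29.5% of genes were called). Against all untreated arrays of each line in place of those of the same time, these were 0.20 and -0.02, with adjusted p of 0.42 and 0.908. Without either line's lone 4 h untreated array that time drops out for both lines. The early difference of HBEGF was then that of 2 h alone, 0.46, with an adjusted p of 0.839. Dropping 18 h in the same way left a late difference of 12 h alone, -0.74, with an adjusted p of 0.0543. The EGFR difference was -0.11 ± 0.25 by the second EGFR probe (adjusted p = 0.818), and the TGFA difference -0.60 ± 0.16 by the second TGFA probe (adjusted p = 0.0111). On the authors' quantile-normalized values the differences of EREG and TGFA were -0.59 and -0.51.

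**Figure D3:**
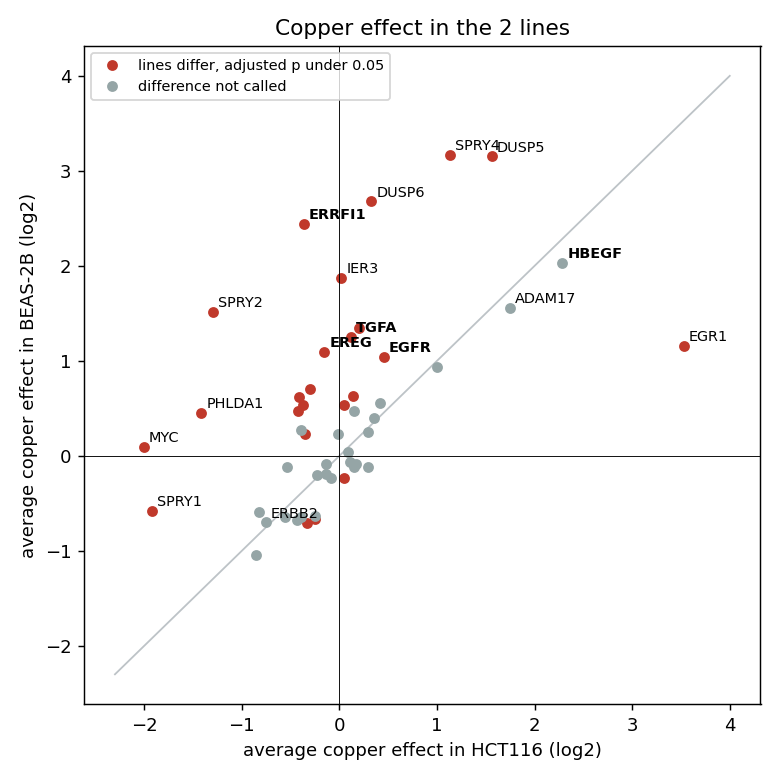
Average copper effect in HCT116 (horizontal axis) against that in BEAS-2B (vertical axis), both log2, for the 5 genes (bold) and 45 other pathway genes, with the line of equal effect in grey; red points are genes whose effects differed between the lines at an adjusted p under 0.05. ERRFI1 lies at -0.36 and 2.44, far above the line, and HBEGF close to it at 2.29 and 2.03.

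Without copper the lines already differed in all 5 genes. TGFA averaged 9.44 ± 0.18 in untreated HCT116 and 5.42 ± 0.32 in untreated BEAS-2B (SD, n = 8 each, over all times), and EREG 8.76 ± 0.17 and 5.16 ± 0.25. ERRFI1 averaged 13.12 ± 0.22 in untreated HCT116 and 10.29 ± 0.55 in untreated BEAS-2B. HBEGF and EGFR ran the other way, with 8.13 ± 0.14 and 7.33 ± 0.20 in untreated HCT116 against 11.48 ± 0.52 and 8.23 ± 0.13 in untreated BEAS-2B. The fitted differences, HCT116 minus BEAS-2B, were 3.99 ± 0.12 for TGFA, 3.58 ± 0.13 for EREG, 2.87 ± 0.06 for ERRFI1, -3.33 ± 0.08 for HBEGF and -0.90 ± 0.07 for EGFR. The largest of their adjusted p was 9.78e-10, for EGFR, and 59.5% of all genes were called. On the authors' quantile-normalized values the differences of TGFA and EREG were 2.63 and 2.17. Each gene's 4 groups of arrays can be put in order by mean level over the times. HBEGF with copper averaged 10.45 ± 0.88 in HCT116 and 13.47 ± 0.26 in BEAS-2B (SD, n = 10 each), and EGFR with copper 7.80 ± 0.44 and 9.26 ± 0.33. For both genes the order, highest first, was BEAS-2B with copper, untreated BEAS-2B, HCT116 with copper and untreated HCT116, and the ranges of the middle groups overlapped. For EREG and TGFA both HCT116 groups, which overlapped each other, lay above BEAS-2B with copper and then untreated BEAS-2B. ERRFI1 with copper averaged 12.80 ± 0.69 in HCT116 and 12.62 ± 0.56 in BEAS-2B. By their means these groups lay below untreated HCT116 and above untreated BEAS-2B. Their ranges, 11.68 to 13.47 and 11.95 to 13.24, overlapped each other and that of untreated HCT116, 12.94 to 13.62.

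Other ligands and receptors of the family were measured beside these genes, and none rose in the average effect in HCT116. At 6 h in HCT116, where 30.8% of all genes were called, 1 of 4 other ligands was called higher, BTC, the gene of betacellulin. Of 4 other ligands that could be tested, NRG1, the gene of neuregulin 1, rose in BEAS-2B by 0.54 ± 0.08 (adjusted p = 8.26e-06), with 5.66 to 7.26 on copper arrays and 5.38 to 6.28 on untreated arrays; its second probe was not called. In HCT116 NRG1 was detected on 0 of 10 copper and 0 of 8 untreated arrays. EGF was detected on at most 1 array of any group, and NRG3 on 2 of 8 untreated BEAS-2B arrays and none of the others. BTC was detected on 6 of 10 copper and 5 of 8 untreated HCT116 arrays, with an average effect of 0.11 ± 0.10 (adjusted p = 0.448), and on 0 BEAS-2B arrays. In BEAS-2B NRG3, the gene of neuregulin 3, averaged 4.61 with copper and 4.85 without at the same times, signals near background. By its bound it was at least 1.07-fold lower with copper, at an adjusted p of 0.0475 by limma. In a limma fit over all named probes the adjusted p was 0.0531. Both tested receptors fell in both lines on average, beside 29.1% of all genes in HCT116 and 30.3% in BEAS-2B. Neither was called at 2, 4 or 6 h in HCT116, or at 2 or 4 h in BEAS-2B. Both were lower at 12 and 18 h in each line, where 34.9 and 42% of all genes were called in HCT116 and 36.8 and 43.2% in BEAS-2B. ERBB2, which has no ligand of its own, changed by -0.75 ± 0.08 in HCT116 (adjusted p = 2.04e-07) and -0.70 ± 0.08 in BEAS-2B (adjusted p = 4.43e-07). The mean ERBB2 effect of 12 and 18 h was -1.75 ± 0.13 in HCT116 and -1.64 ± 0.13 in BEAS-2B, and that of 2 and 4 h was 0.06 ± 0.13 in HCT116 (adjusted p = 0.874) and 0.14 ± 0.13 in BEAS-2B (adjusted p = 0.569). ERBB3, the receptor with a weak kinase, changed by -0.82 ± 0.15 in HCT116 (adjusted p = 1.84e-04) and -0.59 ± 0.15 in BEAS-2B (adjusted p = 0.00321), though neither of its other 2 probes was called. EGFR was thus the only family receptor tested here with a positive average effect in either line. EPGN had no named probe, and NRG2, NRG4 and ERBB4 did not pass the detection filter.

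The genes that process ligands split in both lines, with 2 of 6 higher and 3 lower in HCT116, and 3 higher and 1 lower in BEAS-2B, where 17.3 and 29.1% of all genes were higher and lower in HCT116 and 18.5 and 30.3% in BEAS-2B. ADAM17, the protease that frees HBEGF, TGFA and EREG from the membrane, rose by 1.74 ± 0.07 in HCT116 (adjusted p = 8.37e-13) and 1.56 ± 0.07 in BEAS-2B (adjusted p = 3.4e-12). In HCT116 ADAM17 read 7.63 to 10.07 on copper arrays and 7.12 to 7.76 on untreated arrays, and in BEAS-2B 9.22 to 10.27 and 7.97 to 8.59. Its second probe gave 1.39 and 0.97. RHBDL2, a membrane protease of the rhomboid family, rose by 1.00 ± 0.11 in HCT116 and 0.93 ± 0.11 in BEAS-2B (adjusted p = 3.81e-07 and 8.34e-07), but by its second probe the HCT116 effect of 0.14 was not called. Neither of these processing genes had a called difference between the lines (0.19 ± 0.10 for ADAM17, adjusted p = 0.198, and 0.07 ± 0.15 for RHBDL2, adjusted p = 0.799).

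Of 10 adaptors and kinases tested, 1 was higher and 3 lower in HCT116, and 1 was higher and 5 lower in BEAS-2B, with effects between -0.71 and 0.29. Over all genes 17.3 and 29.1% were higher and lower in HCT116, and 18.5 and 30.3% in BEAS-2B. Feedback and turnover genes, the class to which ERRFI1 belongs, were 5 of 15 higher and 7 lower in HCT116, and 8 of 15 higher and 4 lower in BEAS-2B, beside the same shares of 17.3 and 29.1% and of 18.5 and 30.3% over all genes. In untreated BEAS-2B cells 7 of these 15 were lower at 12 and 18 h than at 0 to 6 h, where 3.37% of all genes were called. SPRY4, a sprouty inhibitor, rose by 1.14 ± 0.09 in HCT116 and 3.17 ± 0.09 in BEAS-2B, and DUSP5, a nuclear ERK phosphatase, by 1.57 ± 0.07 and 3.15 ± 0.07. Of the 3 other SPRY4 probes, 1 was detected on most arrays, and it gave 1.23 and 1.44. SPRY2 fell in HCT116 (-1.30 ± 0.10) and rose in BEAS-2B (1.51 ± 0.10), the same pair of directions as ERRFI1, and its difference between the lines was -2.81 ± 0.14 (adjusted p = 9.98e-11). SPRY1 fell in both, by 1.92 in HCT116 (SE 0.09) and by 0.58 in BEAS-2B (SE 0.09). Copper arrays of HCT116 did not detect SPRY1 at 12 and 18 h, where it was at least 5.46-fold lower, and by its second probe the effects were -1.20 in HCT116 and -0.06, not called, in BEAS-2B. DUSP6, an ERK phosphatase of the cytoplasm, had effects of 0.33 ± 0.08 in HCT116 and 2.68 ± 0.08 in BEAS-2B, although its second probe, detected on 15 of 36 arrays, gave -0.25 and 0.26. By the probe that stood for each gene, these changes were called at adjusted p of at most 0.0014.

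Among 8 targets of ERK, 2 rose and 3 fell in HCT116, and 7 rose and 0 fell in BEAS-2B, beside 17.3 and 29.1% of all genes in HCT116 and 18.5 and 30.3% in BEAS-2B. In untreated BEAS-2B cells 8 of the 8 were lower at 12 and 18 h than at 0 to 6 h, with a median difference of -0.87, and 3.37% of all genes were called there. EGR1, an early response transcription factor, rose by 3.53 ± 0.06 in HCT116 and 1.16 ± 0.06 in BEAS-2B; it read 11.90 to 13.12 on copper and 8.76 to 8.97 on untreated HCT116 arrays, and 9.74 to 11.63 on copper and 8.74 to 12.27 on untreated BEAS-2B arrays. EGR1 was thus the only one of the 8 with a larger effect in HCT116, with a difference of 2.38 ± 0.08 (adjusted p = 5.58e-13). IER3 had an effect of 0.02 ± 0.07 in HCT116 (adjusted p = 0.851) and rose by 1.87 ± 0.07 in BEAS-2B, and FOSL1 rose by 0.20 ± 0.06 (adjusted p = 0.0102) and 1.35 ± 0.06. MYC fell in HCT116, by 2.00 (SE 0.07), and was not called in BEAS-2B (0.10 ± 0.07, adjusted p = 0.287), where its second probe gave 0.31 (adjusted p = 0.0105). PHLDA1 fell by 1.41 in HCT116 (SE 0.07) and rose by 0.45 ± 0.07 in BEAS-2B, though by its second probe the BEAS-2B effect was -0.01. The EGR1, IER3, MYC and PHLDA1 changes that were called had adjusted p of at most 1.56e-05. Over all 45 other pathway genes tested of 54 listed, 10 were higher and 18 lower in HCT116, and 20 were higher and 13 lower in BEAS-2B, again beside 17.3 and 29.1% and 18.5 and 30.3% of all genes.

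**Figure D4:**
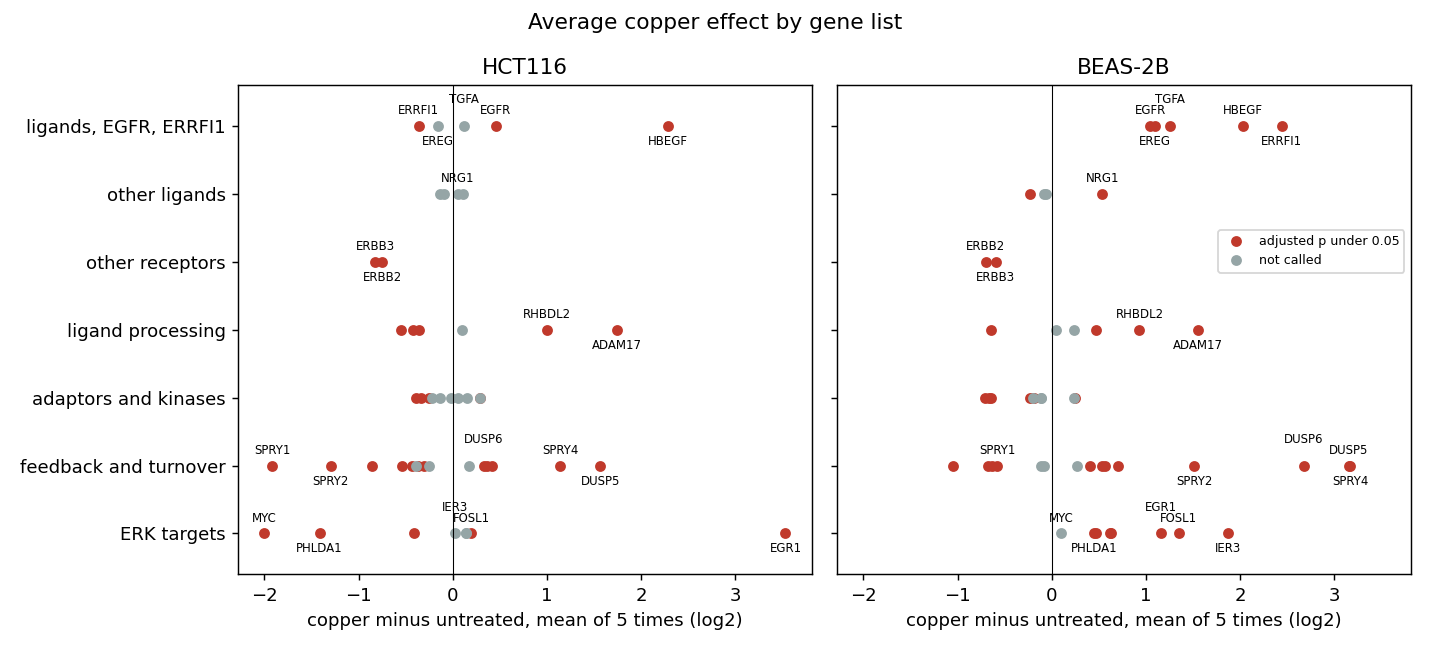
Average copper effect (log2, horizontal axis) of each tested gene in 7 groups of pathway genes, with HCT116 on the left and BEAS-2B on the right; red points had an adjusted p under 0.05 and grey points did not. In HCT116 HBEGF, at 2.29, lies highest of its own group of 5 and below EGR1 at 3.53, and the 5 ligand, receptor and ERRFI1 points all lie above 1 in BEAS-2B.

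The genes whose 11 group means followed each of these genes most closely were found by Pearson's r within a line, among genes spanning at least 1 on the log2 scale (7024 in HCT116 and 6372 in BEAS-2B). They share arrays, so r is a description. HBEGF was followed in HCT116 by IFFO1 (r = 0.995), NAB2 (0.985) and DUSP1 (0.983), and in BEAS-2B by DUSP5 (0.991), IFFO2 (0.985) and CSRNP1 (0.980). ERRFI1 was followed in HCT116 by DCBLD2 (0.971), CD276 (0.971) and RFX5 (0.965), and in BEAS-2B by DUSP5 (0.996), NUP153 (0.991) and IFFO2 (0.981). DUSP5 and IFFO2 were thus among the 3 nearest genes of both HBEGF and ERRFI1 in BEAS-2B, and the HCT116 lists of the same genes had no name in common. In HCT116 the means of EREG spanned less than 1, and in BEAS-2B EREG was followed by ETF1 (0.980), MAFF (0.980) and RPS6KA3 (0.978). TGFA was followed in HCT116 by STXBP5 (0.956), AKAP12 (0.951) and TLNRD1 (0.947), and in BEAS-2B by ABTB2 (0.979), MYO10 (0.976) and PRDM8 (0.975). EGFR was followed in HCT116 by GPRC5A (0.951), STK10 (0.924) and PLEKHG2 (0.920), and in BEAS-2B by ZSWIM6 (0.991), TNFRSF10B (0.988) and SLC38A1 (0.988).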

How the data were processed

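The authors deposited, for each probe and array, a log2 signal and a detection p-value against background, and a second table, also in log2, that the authors had quantile-normalized. BeadStudio is named in the submitters' processing notes, with no version given in the sources used here. The 13 probes with a missing value were dropped from the 43960. The neqc function (limma 3.58.1, R 4.3.3, offset 16) subtracted background estimated through the detection p-values and then equalized the quantiles of the arrays. Named probes with a detection p below 0.01 on at least 2 arrays were kept (19977), and each gene was represented by its brightest, which gave 14678 genes. Annotation names were checked against RefSeq genes of GRCh38.p14.

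All 22 combinations of line, treatment and time entered a single limma model that left 14 residual degrees of freedom (prior 3.44, median residual SD 0.21). Groups with 1 array are assumed to vary like those with 2, and the number of arrays limits the precision. Tests were two-sided, with Benjamini-Hochberg adjustment over all genes tested, and were checked on simulated data. Where no array of a side detected a gene, its bound takes each array's lowest detected signal. Replicate numbers did not pair arrays (21 pairs of groups per line, median correlation -5.4e-04 in HCT116 and 0.0018 in BEAS-2B). The genes and lists were chosen with earlier results of these data known. Of other pathway genes the text names all tested ligands and receptors, and up to 5 per list that were called with an effect of at least 1 in either line. The closing section gives the alternatives tried.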

Additional observations from a re-analysis of the deposited data

Results flagged for a closer look

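The copper effect of all 5 genes differed between HCT116 and BEAS-2B in at least 1 of the 3 tested contrasts (average, 2 and 4 h, 12 and 18 h), by limma's test of the difference itself with adjustment over all genes. Of all genes tested, 26.4, 2.15 and 29.5% were called in these contrasts, in that order. Averaged over the times, the effect in HCT116 minus that in BEAS-2B was -2.81 for ERRFI1 (adjusted p = 9.03e-14), -1.25 for EREG (adjusted p = 4.23e-05), -1.13 for TGFA (adjusted p = 4.74e-05) and -0.59 for EGFR (adjusted p = 1.6e-04). At 2 and 4 h it was -1.85 for ERRFI1 (adjusted p = 1.34e-07) and 0.82 for HBEGF (adjusted p = 0.0166). At 12 and 18 h it was -3.66 for ERRFI1 (adjusted p = 1.26e-12), -2.23 for TGFA (adjusted p = 5.93e-06), -2.15 for EREG (adjusted p = 2.34e-05), -0.78 for EGFR (adjusted p = 0.00103) and -0.77 for HBEGF (adjusted p = 0.0029). Against all untreated arrays of each line the differences of HBEGF were 0.20 early (adjusted p = 0.42) and -0.02 late (adjusted p = 0.908). On the authors' quantile-normalized values the late differences of TGFA and EREG were -1.16 and -1.18, both still called. The late difference of EGFR was -0.45 on the mean of its probes (adjusted p = 0.117). It was -0.66 at 12 h alone (adjusted p = 0.057), which is what remains without the lone 18 h untreated array of either line. The dose differed with the line in each of these, so line and dose cannot be told apart.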

How the results depend on the processing

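Over 51 alternatives (36 that left out 1 array and 15 others), the 5 genes gave 6228 results that kept their side of the threshold (6196 with the same sign and 32, all not called, with the other), 121 that lost a call, 60 that gained one and 1 called result that reversed: ERRFI1 in untreated HCT116, late minus early, was 0.27, and ranged from -0.029 without the untreated 12 h array to 0.571 without that of 18 h. Calls of the late minus early effect in HCT116 numbered 2, and were 4 on the authors' quantile-normalized values, 4 with an offset of 50 and 5 on deposited signals without further normalization. Of steps between copper times, 8 were called in HCT116 and 5 in BEAS-2B, against 5 with array weights in HCT116 and 2 on the mean of a gene's probes in BEAS-2B. The single call among untreated late minus early effects in HCT116 was 0 calls without the detection filter. With the replicate number as a block it was also 0, and the block changed no other count by over 1.5 times.

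Leaving out each array in turn, calls in the average effect ranged from 2 to 3 in HCT116 and from 5 to 5 in BEAS-2B, and at single times from 10 to 11 and from 20 to 22. Calls of late minus early effects ranged from 1 to 4 in HCT116 and from 1 to 3 in BEAS-2B, steps from 6 to 9 and from 3 to 7, and untreated late minus early effects from 0 to 1 and from 2 to 2. Calls of differences between the lines ranged from 10 to 12, and of untreated differences from 5 to 5. The cause of these changes was not tested. The effects of EREG and TGFA in BEAS-2B, whose signals lie near background, were smaller on values that keep the background, at 0.47 and 0.60 to 0.62 beside 1.10 and 1.25. With 1 untreated array at 2, 4, 12 and 18 h, an effect at those times rests on a single untreated array. Leaving that array out drops the time from the averaged, early and late effects, and from both lines where the lines are compared.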
